A study of Homo sapiens with 6 samples.

Results

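Apoptosis, the self-destruction of a cell, is set by a small network of regulators whose transcripts are described here in U2OS cells, a human osteosarcoma line. The network comprised 30 genes of the BCL2 family, the caspases, the inhibitor of apoptosis proteins (IAPs) and their adaptors. They were chosen by name, mapped to Ensembl identifiers with GENCODE release 29, and all 30 had a value in both deposited tables, out of 56982 identifiers in both. By their best known role 8 are pro-survival and 21 pro-death, and RIPK1, which serves both outcomes, was placed on neither side. A total of 28 passed the filter on low values and were tested among 15001 genes. BIK and CASP10 did not pass and are given as values.

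The clone G3C2 was set against wild-type (WT) U2OS cells. G3C2 had been edited with CRISPR/Cas9 at ZFP36L1 and is labelled deficient in it. ZFP36L1 binds AU-rich elements in the 3′ untranslated regions (UTRs) of mRNAs and brings in enzymes that shorten poly(A) tails. Each genotype had 3 libraries, labelled 1, b and c, of poly(A) RNA from untreated, growing cells at 65 to 75% confluency. G3C2 is 1 clone, so the edit and other features of that clone cannot be told apart. The series text speaks of 3 occasions of growth but no label assigns a library to one, so the spread behind each p may be partly technical.

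In the mitochondrial pathway, BCL2 and its pro-survival relatives hold the pore formers of the outer membrane in check, and the small BH3-only proteins release or activate them. Pores let out cytochrome c, which assembles with APAF1 into a platform that activates CASP9, while other released proteins relieve the block that IAPs place on caspases. In the death receptor pathway, FADD recruits CASP8 and CASP10, CFLAR blocks that step, and RIPK1 links the same complexes to survival signalling or to necroptosis. Much of this control acts on proteins, through binding, cleavage and degradation, which transcript levels do not show.

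The values were FPKM, fragments scaled by gene length and by library depth, in a first table with replicate 1 and a second with replicates b and c. Between 18920000 and 28960000 reads per library were recovered from the steps between low values. The tables divide by different gene lengths, so levels are compared between genes, and genotypes with each other, only within a table. ZFP36L1 itself had 238, 105 and 82.4 FPKM in G3C2 replicates 1, b and c, and 165, 57.1 and 128 FPKM in WT. It was higher in G3C2 in 2 of 3 pairs, with a log2 fold change of 0.26 for G3C2 minus WT (SE 0.33, 3 libraries per genotype, limma adjusted p = 0.752). Editing can abolish a protein and leave the mRNA level as it was, so this level does not check the label. The 9 markers of the osteoblast lineage summed to 1860, 553 and 392 FPKM in G3C2 and 956, 355 and 484 FPKM in WT, and IBSP was listed at 0 in all 6 libraries. Among the 4 tested, the collagen gene COL1A1 stood at 899, 248 and 192 FPKM in G3C2 and 209, 82.1 and 184 FPKM in WT. As deposited it was higher in G3C2 in each pair (log2 fold change 1.25, SE 0.41, unadjusted p = 0.0216, limma adjusted p = 0.278). With reads scaled by gene length and recovered total (RPKM), COL1A1 was lower in pair c, at 168 in G3C2 against 207 in WT. The other tested markers had log2 fold changes of 0.68 (SE 0.34) for RUNX2, -0.016 (SE 0.25) for SPARC and -0.88 (SE 0.54) for SPP1. Of all 9 markers as deposited, 2 were higher in 3 pairs, COL1A1 and COL1A2, and 2 were lower, ALPL and BGLAP. The part of these marker levels in the results was not tested. Summed levels in G3C2 and WT were 3.67 to 10.3 and 3.42 to 20.0 FPKM for 5 epithelial markers, 0.585 to 2.5 and 0.947 to 4.04 FPKM for 5 neural markers, and 0.151 to 0.526 and 0.0964 to 0.445 FPKM for 5 haematopoietic markers, of which 3 were listed at 0 in all libraries.

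Since ZFP36L1 recognises AU-rich elements, the 3′ UTRs of the 30 genes were searched for the heptamer TATTTAT on the transcript strand, in the longest annotated UTR of each. It was found in 12 of 30 (40%), against 5947 of 19141 protein-coding genes (31.1%). The median UTR was 1634 bases long among the 30 genes and 1102 bases among all. The longer nonamer TTATTTATT, which contains the heptamer, was found in 5 of 30 (16.7%) and in 1571 of all genes (8.21%). Shown are the nonamer site of each of these 5 genes, then a site of HRK and of MCL1. HRK had the smallest p among genes with a site, and MCL1 was the most abundant pro-survival gene in the second table. Capitals mark the heptamer, coordinates are GRCh38, and each sequence reads 5′ to 3′ along the transcript.
BCL2, chr18:63128353-63128381, minus strand: aaaaaaagattTATTTATttaagacagtc
PMAIP1, chr18:59903961-59903989, plus strand: aggaataatttTATTTATtttgcctattt
CFLAR, chr2:201167059-201167087, plus strand: attttatgattTATTTATttttctatttc
XIAP, chrX:123909016-123909044, plus strand: caaatttatttTATTTATttaattttctt
CYCS, chr7:25123667-25123695, minus strand: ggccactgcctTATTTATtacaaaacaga
HRK, chr12:116859044-116859072, minus strand: tagagaccacgTATTTATcgaatcctgac
MCL1, chr1:150575807-150575835, minus strand: ccctctacagaTATTTATatcaattccta

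PMAIP1 and MCL1 held 3 heptamers each, and APAF1, BCL2L11, CFLAR and CYCS 2 each. BCL2, BCL2L1, CASP2, CASP10, HRK and XIAP held 1 each. The site of CYCS began 17 bases into its UTR, close to the stop codon, while that of CFLAR lay 3097 bases into a UTR of 12714 bases. BID, BMF, CASP4 and RIPK1, which appear among the results, had no match in their longest UTRs, which for CASP4 was 113 bases long. A match is a string of letters and does not show that a protein binds there.

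No gene of the network was called higher or lower in G3C2. At a limma adjusted p under 0.05, 0 of 28 were called, against 3 of 15001 genes higher (0.02%) and 4 lower (0.0267%), or 0.0467% in either direction. At an unadjusted p under 0.05, 0 were higher and 2 lower, HRK and CASP4 (7.14% of 28), against 6.19% of all tested genes higher, 7.43% lower and 13.6% in all. By limma-voom on the recovered reads, 0 were higher and 4 lower (14.3%), namely HRK, CASP4, PMAIP1 and BCL2, against 3.86% of all genes higher, 10.3% lower and 14.2% in all. Without replicate c the unadjusted limma test gave 0 higher and 5 lower, BAD, CASP4, CYCS, HRK and PMAIP1, against 9.53% of all genes higher and 12.9% lower. The shares of HRK, CASP4 and the others with all libraries thus lie near the background. In bulk RNA, fewer cells with a transcript and less RNA per cell cannot be told apart.

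**Figure D1:**
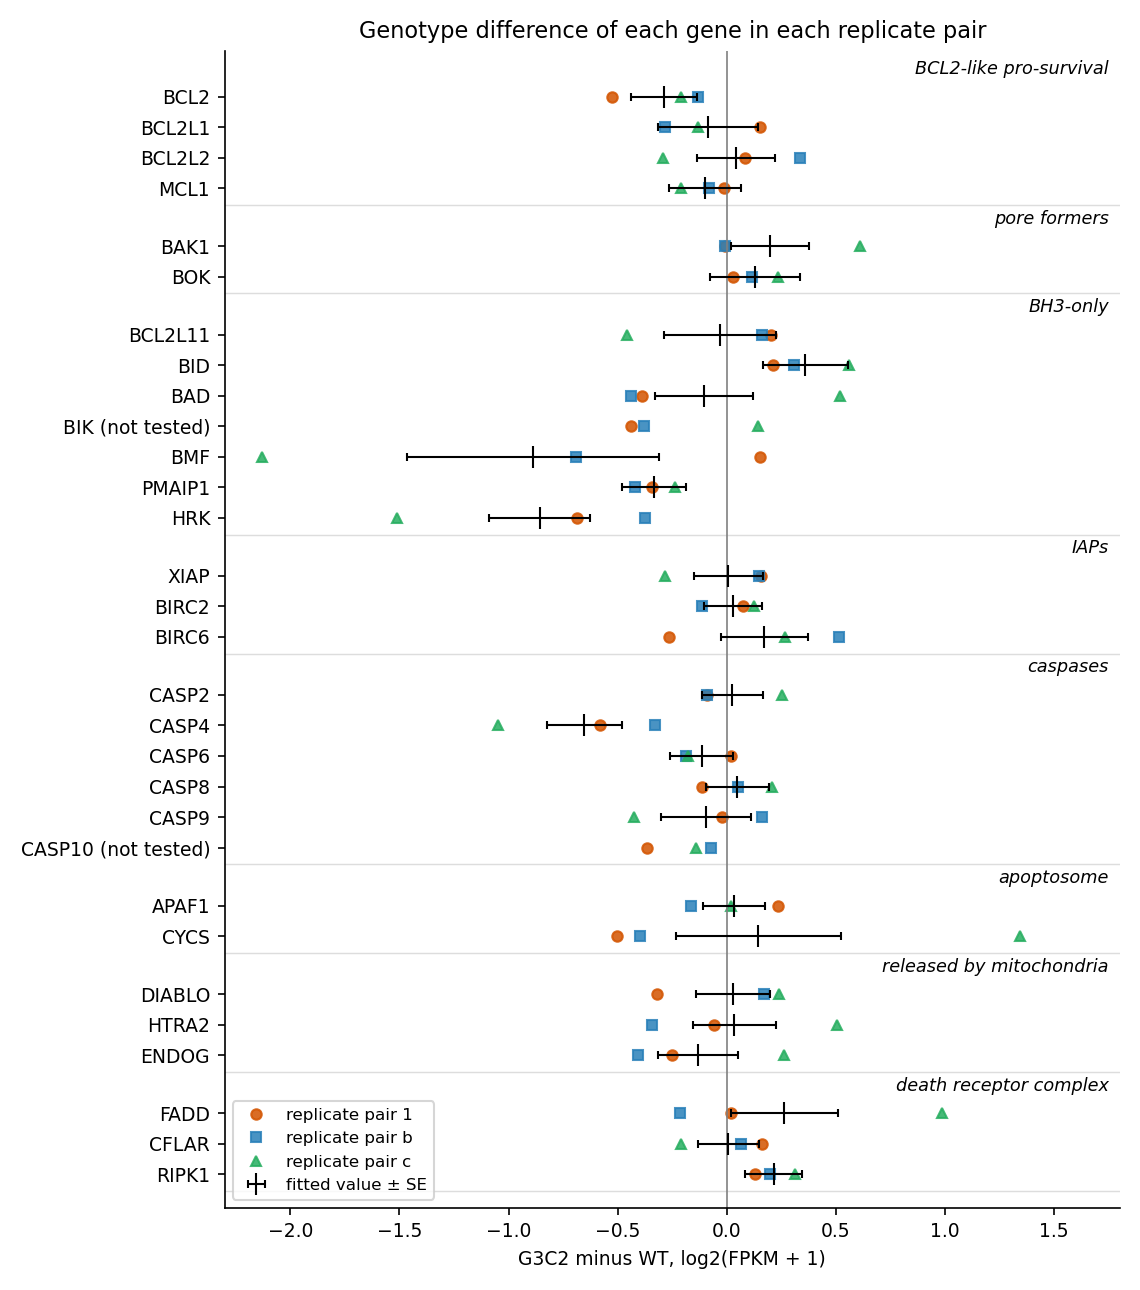
Log2 differences on the FPKM + 1 scale, G3C2 minus WT, for each gene in replicate pairs 1, b and c (coloured symbols), with the fitted value and its SE where tested (black), grouped by role. Most genes sit within 0.5 of 0, HRK and CASP4 lie below 0 in all 3 pairs, and BMF and CYCS spread furthest between pairs.

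The pro-survival BCL2 proteins bind BH3-only proteins and pore formers, and their transcripts differed widely in level. MCL1, a short-lived protein that sequesters BAK1 and PMAIP1, was the most abundant, with 120.0, 69.1 and 75.1 FPKM in G3C2 replicates 1, b and c and 121, 73.2 and 86.9 FPKM in WT. G3C2 was below WT in each pair, by little in pair 1. The groups overlapped within the second table as deposited, though not on recovered read totals. The log2 fold change of MCL1 was -0.10 (SE 0.17, limma adjusted p = 0.814). BCL2, the founding member of the family, was the least abundant of the 4, with 4.89, 1.57 and 1.78 FPKM in G3C2 and 7.47, 1.82 and 2.21 FPKM in WT. Every G3C2 value lay below every WT value of its table, from between 444 and 491 reads per library in G3C2 and 568 and 662 in WT. Its log2 fold change was -0.29 (SE 0.15, limma adjusted p = 0.463), and -0.50 by limma-voom on the recovered reads (adjusted p = 0.320).

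BCL2L1, which encodes BCL-XL, had 45.3, 22.1 and 33.8 FPKM in G3C2 and 40.6, 27.1 and 37.1 FPKM in WT. It was above WT in replicate 1 and below in the others, with a log2 fold change of -0.087 (SE 0.23). BCL2L2, which encodes BCL-W, had 27.6, 8.04 and 7.45 FPKM in G3C2 and 26.0, 6.16 and 9.36 FPKM in WT, and its log2 fold change was 0.041 (SE 0.18). The genotypes overlapped for both genes. Reads of these genes can come from overlapping genes. Of the exon bases of BCL2L1, 43.0% lie in ABALON, and 24.3% of those of BCL2L2 lie in BCL2L2-PABPN1 and PPP1R3E. ABALON and PPP1R3E are on the other strand, but BCL2L2-PABPN1 is on the strand of BCL2L2, so counting by strand would not separate the latter 2. Whether counting used strand is not given in the labels or processing notes.

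Of the pore formers, BAK1 sits in the outer mitochondrial membrane and BOK is a less studied relative. BAK1 had 16.0, 26.0 and 35.1 FPKM in G3C2 and 16.1, 26.2 and 22.6 FPKM in WT. The genotypes were level in pairs 1 and b and apart in pair c alone, which gave a log2 fold change of 0.20 (SE 0.18) with pair c and -0.009 without it. BOK had 9.87, 18.5 and 27.5 FPKM in G3C2 and 9.65, 17.0 and 23.2 FPKM in WT. As deposited it was higher in G3C2 in all 3 pairs by small amounts (0.029, 0.11 and 0.24), and the groups overlapped in the second table. On recovered read totals its log2 difference in pair c was -0.11. Its 35 tested neighbours within 5 Mb had a median log2 fold change of 0.26, above the 0.13 (SE 0.21) of BOK.

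The BH3-only genes, the sensors that start the mitochondrial pathway, held the widest differences. HRK, which binds BCL2 and BCL-XL, had 3.16, 1.63 and 0.712 FPKM in G3C2 and 5.68, 2.41 and 3.88 FPKM in WT. G3C2 was below WT in each pair with no overlap in either table, and G3C2 replicate c was lowest with 110 reads, against 676 in WT replicate c. The log2 fold change of HRK was -0.86 (SE 0.23, unadjusted p = 0.00935, limma adjusted p = 0.213). By limma-voom on the recovered reads it was -1.45 (adjusted p = 0.237). Without pair c the limma value was -0.53, and over the other alternatives that kept all libraries its limma adjusted p was at least 0.214. The 70 tested neighbours of HRK within 5 Mb had a median of -0.062.

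PMAIP1, which encodes NOXA, a p53-induced partner of MCL1, was the most abundant BH3-only gene. It had 63.2, 45.6 and 45.9 FPKM in G3C2 and 80.4, 61.4 and 54.2 FPKM in WT. The 3 pairs gave similar log2 differences of -0.34, -0.42 and -0.24, and the genotypes did not overlap in either table. The log2 fold change was -0.33 (SE 0.15, unadjusted p = 0.0636, limma adjusted p = 0.397). BID, which CASP8 cleaves to join the receptor and mitochondrial pathways, had 6.65, 3.24 and 5.16 FPKM in G3C2 and 5.62, 2.43 and 3.18 FPKM in WT. In contrast to PMAIP1, G3C2 was above WT in each pair, with no overlap in either table as deposited. The log2 fold change of BID was 0.36 (SE 0.19, limma adjusted p = 0.472).

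BMF, a BH3-only protein kept on the cytoskeleton until released, had 6.32, 5.14 and 0.545 FPKM in G3C2 and 5.59, 8.89 and 5.77 FPKM in WT. G3C2 was above WT in the first table, while both G3C2 libraries of the second lay below both WT libraries. Replicate c of G3C2 stood far below the other libraries of its table, with 67 reads against 798 in WT replicate c. The log2 fold change was -0.89 (SE 0.58, limma adjusted p = 0.538), and without that library it was -0.17. By limma-voom on the recovered reads of all libraries it was -1.72 (adjusted p = 0.426). BCL2L11, which encodes BIM, had 22.3, 8.69 and 4.26 FPKM in G3C2 and 19.2, 7.67 and 6.22 FPKM in WT. It was above WT in pairs 1 and b and below in pair c, so that its fitted log2 fold change was -0.032 (SE 0.26).

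BAD, which is held inactive by growth factor signalling, had 5.24, 18.8 and 23.4 FPKM in G3C2 and 7.18, 25.9 and 16.1 FPKM in WT. It was below WT in pairs 1 and b, by 0.39 and 0.44 on the log2 scale, and above in pair c by 0.52. BIK, a BH3-only protein of the endoplasmic reticulum, rested on 5 to 12 reads in G3C2 and 10 to 26 reads in WT, at 0.235 to 0.558 FPKM in G3C2 and 0.413 to 0.92 FPKM in WT. At that depth no difference could be read for BIK. The median log2 difference of the 7 BH3-only genes was -0.34, -0.38 and -0.24 in pairs 1, b and c. Over the 6 tested genes, without BIK, it was -0.096, -0.40 and -0.35, against medians of -0.076, -0.005 and 0.074 over all tested genes.

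**Figure D2:**
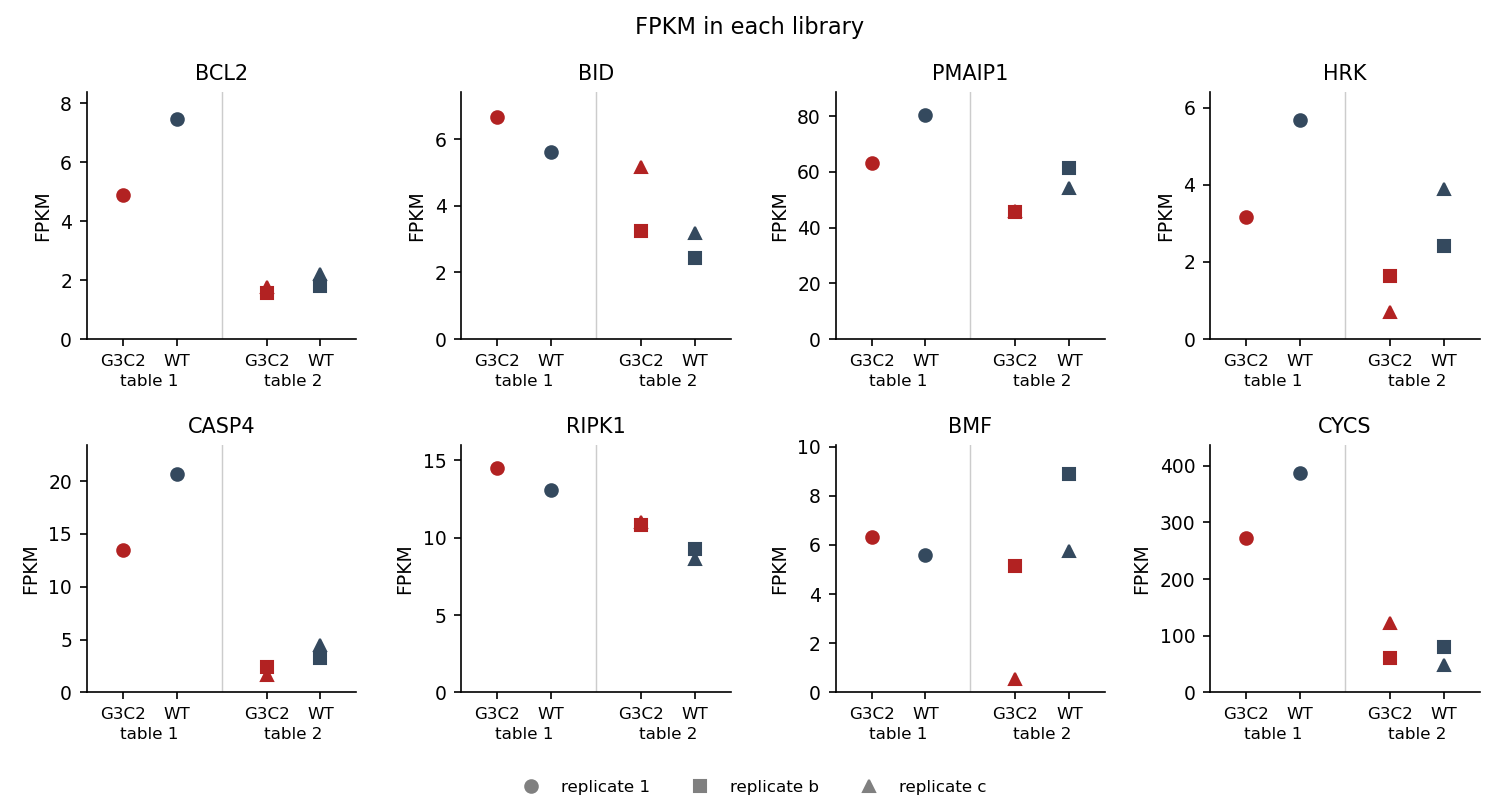
FPKM of 8 genes in each library, G3C2 left of WT, with replicate 1 (circles) in the first table and replicates b (squares) and c (triangles) in the second. The first 6 are the tested genes whose genotypes parted in the same direction in both tables without overlap, as deposited. G3C2 was lower for BCL2, PMAIP1, HRK and CASP4 and higher for BID and RIPK1. BMF was higher in G3C2 in the first table and lower without overlap in the second, and CYCS overlapped in the second.

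The counts that follow use FPKM as deposited. Counting over the tested genes, 2 of 28 (7.14%), BID and RIPK1, had every G3C2 library above every WT library within both tables, against 14.9% of all tested genes. The reverse held for 4 of 28 (14.3%), BCL2, PMAIP1, HRK and CASP4, against 14.8% of all tested genes. On recovered read totals BID and RIPK1 overlapped in the second table, while MCL1, CASP2 and ENDOG came to be lower without overlap. The shares of all genes were not counted on that scale. By direction alone, 3 of all 30 (10.0%) were higher in 3 pairs, BOK, BID and RIPK1, against 17.8% of tested genes. Those lower in 3 pairs were 6 of 30 (20.0%), BCL2, MCL1, PMAIP1, HRK, CASP4 and CASP10, against 18.6%.

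The IAPs restrain caspases or tag signalling proteins with ubiquitin. XIAP, the direct inhibitor of CASP9 and the executioner caspases, had 16.7, 4.63 and 3.33 FPKM in G3C2 and 14.9, 4.09 and 4.26 FPKM in WT. It lay above WT in pairs 1 and b and below in pair c, and its log2 fold change was 0.007 (SE 0.16). BIRC2, the ubiquitin ligase cIAP1 that modifies RIPK1, had 27.7, 8.40 and 9.32 FPKM in G3C2 and 26.3, 9.17 and 8.46 FPKM in WT, with a log2 fold change of 0.029 (SE 0.13). The genotypes overlapped for both as deposited. BIRC6, a very large ubiquitin-conjugating enzyme, had 112, 10.1 and 7.63 FPKM in G3C2 and 135, 6.77 and 6.18 FPKM in WT. As deposited it was below WT in pair 1 and above in the others, with a log2 fold change of 0.17 (SE 0.20, limma adjusted p = 0.730). On recovered read totals its log2 difference in pair c was -0.052.

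Among the caspases, CASP4 stood apart from the rest. CASP4 is an inflammatory caspase that binds bacterial lipopolysaccharide and cleaves gasdermin D, rather than a step of classical apoptosis. It had 13.5, 2.38 and 1.65 FPKM in G3C2 and 20.7, 3.23 and 4.49 FPKM in WT. G3C2 was below WT in each pair with no overlap in either table, from 270 to 457 reads in G3C2 and 464 to 827 in WT. The log2 fold change was -0.65 (SE 0.17, unadjusted p = 0.00866, limma adjusted p = 0.211), and -0.46 without pair c. The 30 tested neighbours of CASP4 within 5 Mb had a median of 0.017. BIRC2 lies on the same arm of chromosome 11, at 102347211 to 102378670, with CASP4 at 104942866 to 104969436 (GRCh38).

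The initiator CASP8 had 38.3, 6.81 and 6.43 FPKM in G3C2 and 41.6, 6.54 and 5.43 FPKM in WT, and a log2 fold change of 0.048 (SE 0.15). CASP9, the initiator of the mitochondrial pathway, had 11.8, 4.75 and 2.57 FPKM in G3C2 and 12, 4.14 and 3.79 FPKM in WT. Replicate c of G3C2 was its lowest library, and the log2 fold change was -0.095 (SE 0.21). CASP2, a caspase activated by the PIDD1 complex, had 17.9, 4.74 and 5.52 FPKM in G3C2 and 19.2, 5.11 and 4.47 FPKM in WT. CASP6, an executioner, had 24.7, 9.74 and 8.58 FPKM in G3C2 and 24.4, 11.2 and 9.82 FPKM in WT. Their log2 fold changes were 0.024 (SE 0.14) for CASP2 and -0.12 (SE 0.14) for CASP6. As deposited, the genotypes overlapped within the second table for CASP2, CASP8 and CASP9. CASP6 was just above WT in the first table and below it in the second.

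CASP10, the other initiator at death receptors, was close to absent, with 8, 7 and 4 reads in G3C2 and 20, 20 and 25 reads in WT. That is 0.171, 0.0347 and 0.0233 FPKM in G3C2 and 0.509, 0.0887 and 0.130 FPKM in WT. Each G3C2 library was below each WT library of its table, at counts too low for the tested set. When all 33895 genes with a value were tested without a filter, CASP10 was 1 of 4 genes of the network with an unadjusted p under 0.05, all lower, beside CASP4, HRK and PMAIP1, against 5.32% of those genes lower and 3.5% higher. CFLAR, CASP10 and CASP8 stand in a row on chromosome 2, from 201116104 to 201287711 (GRCh38). Expression thus differed by orders of magnitude within 1 cluster, since CASP8 averaged 6.30 and CASP10 0.0692 FPKM over the 4 libraries of the second table.

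Of the platform that activates CASP9, APAF1, its scaffold, had 10.5, 2.81 and 2.88 FPKM in G3C2 and 8.77, 3.26 and 2.82 FPKM in WT, with overlap in the second table and a log2 fold change of 0.031 (SE 0.14). CYCS, cytochrome c, had the highest mean level of the network in the second table, although MCL1 was above it in G3C2 replicate b and WT replicate c. It had 273, 61.0 and 123 FPKM in G3C2 and 387, 80.8 and 48.1 FPKM in WT. G3C2 was below WT in pairs 1 and b (log2 differences of -0.51 and -0.40) and above it in pair c (1.34), so the fitted log2 fold change was 0.15 (SE 0.38, limma adjusted p = 0.886). Without pair c it was -0.45 (limma adjusted p = 0.0579), on 1 residual degree of freedom. The 39 tested neighbours of CYCS within 5 Mb had a median of -0.38 in the fit with all libraries. CYCS has processed pseudogenes across the genome, so how reads were shared between copies makes its level uncertain.

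The proteins released beside cytochrome c were at low to middling levels. HTRA2, a protease that cleaves IAPs, had 19.8, 13.4 and 17.4 FPKM in G3C2 and 20.7, 17.2 and 12 FPKM in WT. ENDOG, a mitochondrial nuclease, had 1.07, 4.96 and 7.68 FPKM in G3C2 and 1.46, 6.90 and 6.25 FPKM in WT. As deposited, both were below WT in pairs 1 and b and above in pair c. On recovered read totals ENDOG was at -0.058 in pair c. The log2 fold changes were 0.035 (SE 0.19) for HTRA2 and -0.13 (SE 0.18) for ENDOG. Other genes cover 36.9% of the exon bases of HTRA2 and 39.2% of those of ENDOG, which makes their levels uncertain, as it does for BAD with 23.7%. DIABLO, which displaces caspases from IAPs, had 38 to 81 reads in G3C2 and 46 to 53 reads in WT, at 1.12, 0.423 and 0.530 FPKM in G3C2 and 1.66, 0.264 and 0.296 FPKM in WT. It was below WT in the first table and above it in the second, and its genotype effect differed between tables at an unadjusted p of 0.0473 in limma's interaction test (adjusted p = 0.948), as did 2.86% of all tested genes. A second identifier for DIABLO, listed in the second table only, had 0.016 and 0.0189 FPKM in G3C2 and 0.0143 and 0.0335 FPKM in WT, and both overlap in annotation, so the level of DIABLO is uncertain.

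At the death receptor complex, RIPK1, the kinase that links receptors to survival or necroptosis, had 14.5, 10.8 and 11 FPKM in G3C2 and 13.1, 9.27 and 8.64 FPKM in WT. As deposited, G3C2 was above WT in each pair with no overlap in either table, by small and similar log2 differences of 0.13, 0.20 and 0.31. The log2 fold change was 0.21 (SE 0.13, limma adjusted p = 0.514). FADD, the adaptor that recruits CASP8, had 4.13, 10.5 and 15.2 FPKM in G3C2 and 4.06, 12.4 and 7.16 FPKM in WT. Pair c alone was far apart, and the log2 fold change of FADD was 0.26 (SE 0.25) with it and -0.098 without it. CFLAR, the decoy that blocks CASP8, had 19.7, 2.25 and 1.83 FPKM in G3C2 and 17.5, 2.10 and 2.28 FPKM in WT, with a log2 fold change of 0.007 (SE 0.14). For FADD, 54.9% of exon bases overlap AP000879.1 on the other strand, and its level is uncertain to that extent.

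Set side by side, the pro-survival and pro-death genes did not differ in the fit beyond the spread between pairs. The 8 pro-survival genes had median log2 differences of 0.079, -0.007 and -0.21 in pairs 1, b and c, and the 21 pro-death genes -0.092, -0.19 and 0.21. Pro-survival genes thus lay above pro-death genes in pairs 1 and b and below them in pair c. With FPKM rescaled to the recovered read totals, the medians of the tested genes in pair c were -0.47 for the 8 pro-survival and -0.10 for the 19 pro-death genes, against -0.16 for all tested genes, so the pro-death median changed sign and the order of the sides did not. Over the tested genes of each side, the medians of the fitted log2 fold changes were 0.007 and 0.024, a difference of -0.018, against an SD of 0.35 for that difference over the 3 pairs. Over all 15001 tested genes the median was 0.011. Genes are not replicates of a genotype, so no test was made over them.

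**Figure D3:**
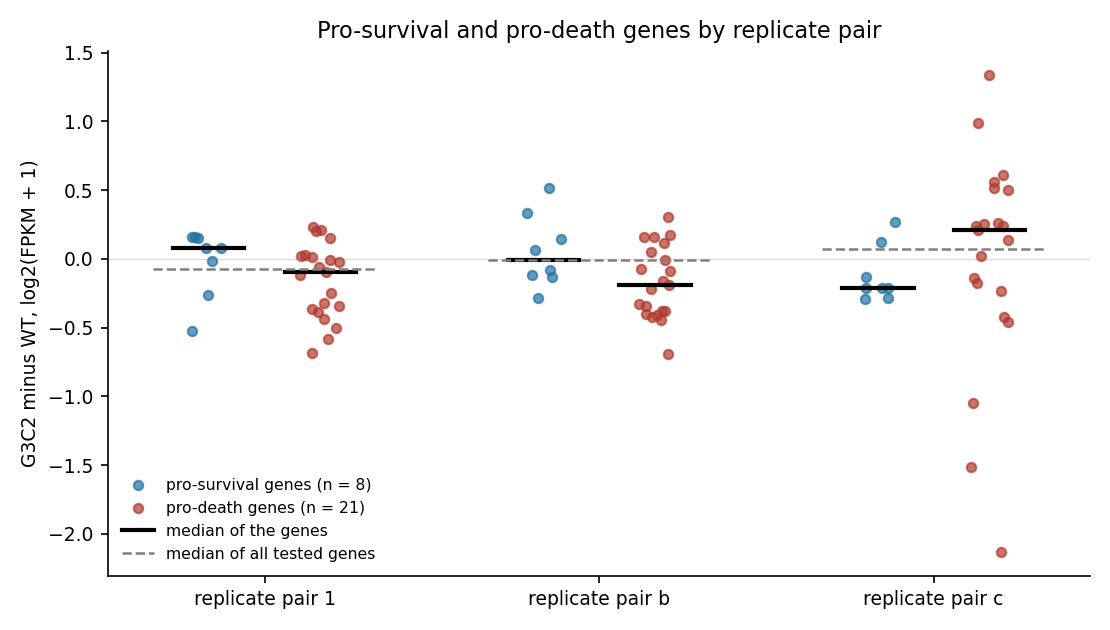
Log2 differences on the FPKM + 1 scale, G3C2 minus WT, of the 8 pro-survival (blue) and 21 pro-death genes (red) in each replicate pair, with the median of each side (black bars) and of all tested genes (dashed). The pro-survival median is the upper one in pairs 1 and b and the lower one in pair c, at -0.21 against 0.21 as deposited and at -0.47 against -0.10 over tested genes with rescaled FPKM, which are not plotted.

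Within the BCL2 family, levels summed over each side split by the same pairs. The summed level of its 4 pro-survival genes was 198, 101 and 118 FPKM in G3C2 and 195, 108 and 136 FPKM in WT. That of its 9 pro-death genes was 133, 128 and 143 FPKM in G3C2 and 150, 153 and 136 FPKM in WT. The ratio of the sums was 1.49, 0.786 and 0.826 in G3C2 and 1.30, 0.708 and 1.0 in WT, higher in G3C2 in pairs 1 and b and lower in pair c. BAX, an abundant pore former that is not among the 30 genes, is left out of these sums. With BAX added, the ratio was 0.734, 0.492 and 0.483 in G3C2 and 0.695, 0.503 and 0.663 in WT, so that in pair b G3C2 was no longer above WT. MCL1 made up 60.7 to 68.6% of the pro-survival sum in G3C2 and 62.1 to 67.6% in WT, and PMAIP1 32.1 to 47.5% of the pro-death sum without BAX in G3C2 and 40 to 53.6% in WT. The log2 ratio of these binding partners, MCL1 over PMAIP1, was 0.93, 0.60 and 0.71 in G3C2 and 0.59, 0.25 and 0.68 in WT. That ratio was higher in G3C2 in all 3 pairs, by 0.34, 0.35 and 0.030. A further 6 ratios of partners were examined. BIRC2 over RIPK1 was lower in G3C2 in all 3 pairs, with log2 differences of -0.060, -0.35 and -0.21. The others changed direction between pairs. BCL2 over BCL2L11 differed by -0.82, -0.39 and 0.23, and BCL2L1 over BAK1 by 0.17, -0.29 and -0.77. XIAP over CASP9 differed by 0.19, -0.018 and 0.20, APAF1 over CASP9 by 0.28, -0.41 and 0.59, and CFLAR over CASP8 by 0.29, 0.039 and -0.56.

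For many genes pair c differed from the other pairs, and its 2 libraries differed from replicate b in both genotypes. Within G3C2, CYCS was 1.003 higher on the log2 scale in replicate c than in b, and within WT it was 0.74 lower. FADD differed by 0.49 in G3C2 and -0.72 in WT, BAD by 0.30 and -0.66, and HTRA2 by 0.36 and -0.49. In the opposite sense, HRK differed by -0.62 in G3C2 and 0.52 in WT, and CASP4 by -0.35 and 0.37. BOK, BID and BCL2L1, by contrast, were higher in replicate c in both genotypes, BOK by 0.54 in G3C2 and 0.42 in WT. These differences use FPKM as deposited, and the genes named kept their directions in RPKM. BAD then had 19.1 and 20.4 RPKM in G3C2 replicates b and c, and 26.6 and 18.1 in WT. HRK had 1.66 and 0.621 RPKM in G3C2, and 2.47 and 4.37 in WT. The sample labels alone pair the libraries within the second table, so differences of pairs b and c rest on that pairing, while the fitted values do not.

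**Figure D4:**
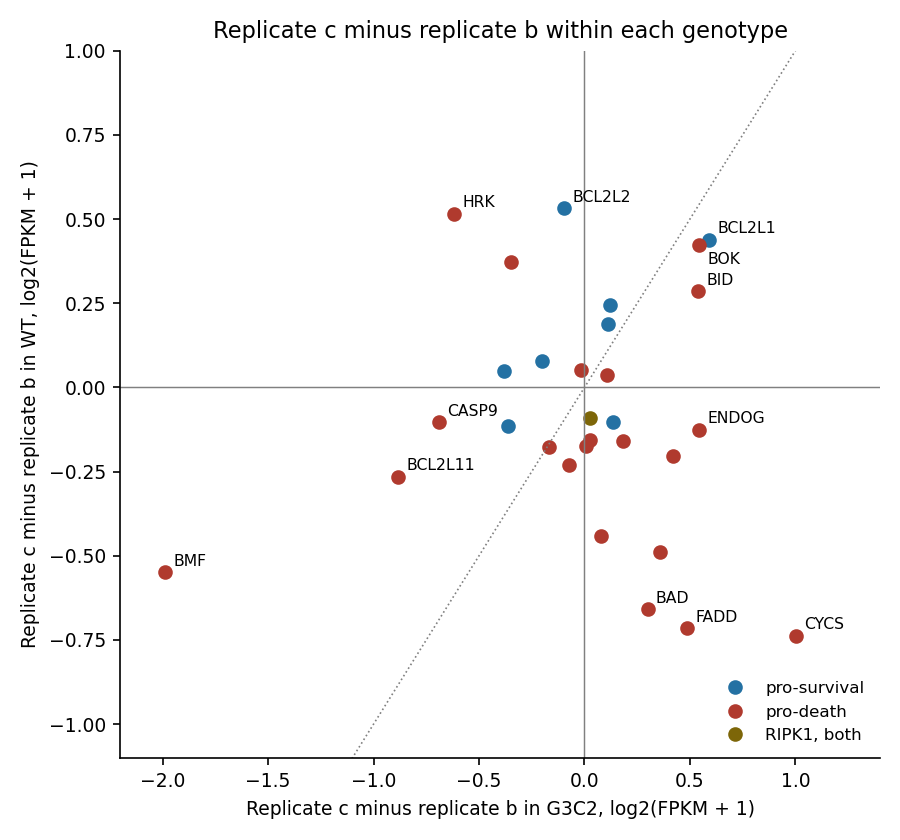
Difference between replicates c and b on the log2(FPKM + 1) scale, in G3C2 (horizontal) and in WT (vertical), for each of the 30 genes, coloured by side, with the dotted line marking equal differences. CYCS, FADD and BAD lie at the lower right, higher in replicate c in G3C2 and lower in WT, and HRK lies at the upper left. FPKM are as deposited, and rescaled values are not plotted.

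Scaling bore on pair c as well. The deposited FPKM of replicate c had been divided by 22560000 reads in G3C2 and 25410000 in WT, whereas the reads recovered were 25830000 in G3C2 and 22600000 in WT. Each divisor thus lay nearer to the recovered total of the other genotype, and the cause was not tested. Rescaling to those totals moved the median of all tested genes in pair c by -0.24 on the log2 scale, by -0.008 in pair b and by 0.001 in pair 1. In pair c 8 of the 28 tested genes of the network then turned from above to below WT. RIPK1 was at -0.017, CASP2 at -0.048, BIRC6 at -0.052, ENDOG at -0.058, CASP8 at -0.10 and BOK at -0.11, all above the median of -0.16 for all genes. BIRC2 at -0.20 and APAF1 at -0.25 lay below that median. HRK, CASP4, PMAIP1 and BCL2 stayed below WT in each pair on that scale, and BID stayed above.

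Genes of the network with a TATTTAT site had medians below those without in each pair. The 12 genes with the heptamer had median log2 differences of -0.052, -0.11 and -0.21 in pairs 1, b and c, and the 18 without had -0.014, -0.062 and 0.24. Of the 12, 0 were higher in all 3 pairs and 5 were lower, namely BCL2, CASP10, HRK, MCL1 and PMAIP1. All tested genes with the heptamer, 4368 in number, had medians of -0.006, 0.037 and 0.073, and 24.8% were higher in all pairs and 17.5% lower. The 7743 tested genes without it had medians of -0.11, -0.045 and 0.13, and 15.5% were higher in all pairs and 19.2% lower. Of the 5 genes with the nonamer, BCL2 and PMAIP1 were below WT in each pair, while CFLAR, CYCS and XIAP changed direction between pairs.

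The other genes of these pathways, from 4 lists of 56 genes, were not called either. Of 40 tested, 0 passed limma's adjusted threshold, and at an unadjusted p under 0.05, 2 were higher and 5 lower (17.5% in all), against 13.6% of all tested genes. Among death receptors and their ligands and adaptors, the smallest p belonged to TRADD, FAS and TNFRSF10C. TRADD, the adaptor of the TNF receptor, had 7.79, 9.08 and 7.74 FPKM in G3C2 and 12.4, 11.4 and 12.6 FPKM in WT, a log2 fold change of -0.51 (SE 0.14, limma adjusted p = 0.214). FAS, a death receptor, had 12.8, 3.40 and 4.52 FPKM in G3C2 and 18.1, 4.82 and 7.21 FPKM in WT, a log2 fold change of -0.48 (SE 0.19, limma adjusted p = 0.340). For both, the genotypes did not overlap in either table, and TNFRSF10C, a decoy receptor, had a log2 fold change of -0.45 (SE 0.21).

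Among further BCL2 relatives and partners the smallest p belonged to VDAC2, BCL2L13 and BAG3. VDAC2, the mitochondrial channel to which BAK1 binds, had 434, 117 and 164 FPKM in G3C2 and 355, 78.4 and 52.2 FPKM in WT, a log2 fold change of 0.83 (SE 0.28, limma adjusted p = 0.292). It was higher in G3C2 in each pair, most in pair c, where WT was lowest. BCL2L13, a mitophagy receptor, and BAG3, a cochaperone, were below WT in each pair, with log2 fold changes of -0.47 (SE 0.17) for BCL2L13 and -0.32 (SE 0.15) for BAG3. Among other caspases and IAPs, BIRC3, the close relative of BIRC2, had 1.12, 0.0853 and 0.218 FPKM in G3C2 and 8.46, 0.525 and 0.298 FPKM in WT, from 17 to 58 reads in G3C2 and 57 to 367 in WT. Its log2 fold change was -0.91 (SE 0.38, limma adjusted p = 0.375), with log2 differences of -2.16, -0.49 and -0.092 in pairs 1, b and c. For BIRC5, a mitotic IAP also called survivin, the value was 0.34 (SE 0.37).

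Of the genes that carry out other forms of death, GSDMD, GSDME and MLKL had the smallest p. GSDME, a pore former cut by executioner caspases, had 40, 6.01 and 5.29 FPKM in G3C2 and 55.3, 8.57 and 10.2 FPKM in WT, a log2 fold change of -0.58 (SE 0.15, limma adjusted p = 0.200). It was below WT in each pair, and its 37 tested neighbours within 5 Mb on chromosome 7 had a median of -0.35. GSDMD, the substrate of CASP4, had 54.3, 3.74 and 5.01 FPKM in G3C2 and 52.8, 0.606 and 0.646 FPKM in WT. The genotypes were level in the first table and far apart in the second, with a log2 fold change of 1.16 (SE 0.35, limma adjusted p = 0.248). MLKL, the pore former of necroptosis, had a log2 fold change of -0.55 (SE 0.22), with a median of -0.35 over its 48 tested neighbours.

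The tables themselves gave different levels for the same gene, in relation to its base composition. Recovered reads were put on the same gene length and depth (RPKM) for this, and replicate 1 was set against replicate b. BAD then had 1.94 RPKM in G3C2 replicate 1 and 19.1 in G3C2 replicate b, and 2.66 and 26.6 RPKM in the same replicates of WT. BMF, ENDOG, BOK and FADD were also lower in replicate 1 than in replicate b. BMF in G3C2 replicate 1, at 1.6 RPKM, was nonetheless above G3C2 replicate c, at 0.476. BIRC6 was higher in the first table, at 21.4 RPKM in WT replicate 1 against 6.94 in WT replicate b. Over the 28 tested genes the log2 ratio of the tables in WT had a Spearman correlation of -0.768 with the GC content of the annotated transcripts, and over 14583 tested genes -0.524. These points share 2 libraries and are no replicates, and the origin of the relation was not tested. Over 14988 genes the genotype differences within pairs 1, b and c had correlations of -0.056, -0.0437 and -0.0648 with GC content.

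**Figure D5:**
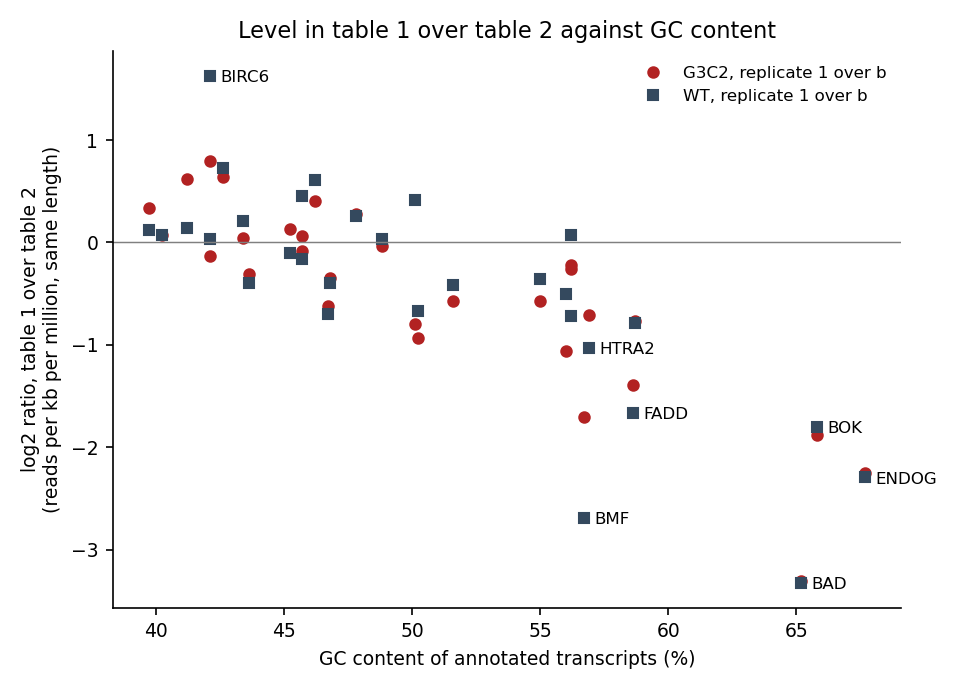
Log2 ratio of the level in replicate 1 (first table) over replicate b (second table), in RPKM on the same gene length, against transcript GC content. All 30 genes are shown, with BIK and CASP10, in G3C2 (red circles) and WT (dark squares). The GC-rich genes BAD (65.2%), BOK (65.8%) and ENDOG (67.7%) lie lowest in G3C2, with BMF (56.7%) among them in WT, and BIRC6 (42.1%) lies highest in WT.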

How the data were processed

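The authors deposited FPKM in 2 tables, per the file headers, with replicate 1 in the first and b and c in the second. CASAVA, HISAT2 and the build GRCh38.p12 stand in the submitters' processing notes without versions; how reads were counted, with or without strand, is not given there. The tables listed 60448 and 59108 identifiers, of which 56982 were in both and 56868 of these matched GENCODE 29.

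FPKM steps gave whole reads, within 0.02 reads, for 97.2 to 97.3% of values in the second table with union exon lengths, and for 86.0 to 86.3% in the first with rounded mean transcript lengths. Recovered reads were 22580000, 26080000 and 25830000 in G3C2 replicates 1, b and c and 18920000, 28960000 and 22600000 in WT.

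Log2(FPKM + 1) was fitted with limma 3.58.1 (R 4.3.3) on genotype and table with a trend of variance on mean. P-values were adjusted by Benjamini-Hochberg, at 0.05, over 15001 genes with at least 1 FPKM in at least 2 libraries. Fold changes on this scale understate those of low genes. The fit was tested on simulated data.

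Same-labelled libraries deviated together (r = 0.934, 0.801 and 0.595 for 1, b and c), a pattern the separate tables alone can give. Within the second table r was -0.165, so the pairing there rests on the sample titles. A fit with a replicate block was run beside the main one and called 0 genes of the network.

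The 30 genes and all lists were chosen with earlier results of these data known. Named are all 30 and, per further pathway list, up to 3 tested genes with the smallest p. The few marker genes named were chosen after their values were seen. Alternatives covered the pseudocount, filters, block, table term, scaling and left-out libraries. Limma-voom on reads of both tables and rescaling to read totals, sums with BAX and medians over tested genes alone were added after seeing the data. Python 3.11.15, pandas 2.3.3, numpy 2.4.6 and matplotlib 3.10.9 were used. Protein sequences were not used here, and 1 gene named by the rule is not reported here.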

Additional observations from a re-analysis of the deposited data

How the results depend on the processing

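No gene of the network was called higher or lower in any of the 21 alternatives, and the lowest limma adjusted p over them was 0.0579, for CYCS without replicate c. Over all genes, those called higher, 3 as reported, numbered 0 with no filter, without the table term, with the replicate block, from the second table alone and with limma-voom on its reads. They numbered 5 with equal medians, and 1 each with limma-voom on both tables and with rescaled FPKM. Those called lower, 4 as reported, numbered 0 with no filter, without the table term and from the second table alone, 1 at a mean FPKM of at least 5 and with the replicate block, and 10 with limma-voom on both tables. With a library or pair left out, 0 to 448 were higher and 0 to 457 lower, both most numerous without replicate c. The median of pro-survival genes (0.007) was -0.286 with limma-voom on the second table and -0.146 on both, and that of pro-death genes (0.024) was -0.222 on the second. In these fits the median of all genes shifts too, by -0.12 on both tables. Without replicate c, BAK1 was -0.009 against 0.20 and FADD -0.098 against 0.26, and with libraries or pairs left out they reached 0.302 and 0.503. Of the 9 genes whose log2 fold change exceeded its SE, these 2 turned sign, and 0 did so with all libraries kept. Of the 19 others, 16 turned sign somewhere. With the replicate block HRK and CASP4 had a limma adjusted p of 0.310 each, and the block changed no call of the network. Causes were not tested. Depth limits BIK, CASP10 and DIABLO, with 4 to 81 reads in each library. Reads were also few in replicate 1 for ENDOG, with 28 in G3C2 and 32 in WT, and for BAD, with 75 and 86.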

Other observations

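The network was expressed at very different levels. Over the 4 libraries of the second table, CYCS averaged 78.2 FPKM, MCL1 76.1, PMAIP1 51.8 and BCL2L1 30, while BCL2 averaged 1.84, BIK 0.591, DIABLO 0.378 and CASP10 0.0692. CYCS and MCL1, neighbours in that order, did not differ beyond their spread, with 61.0 and 123 FPKM for CYCS and 69.1 and 75.1 FPKM for MCL1 in G3C2, and 80.8 and 48.1 FPKM for CYCS and 73.2 and 86.9 FPKM for MCL1 in WT. BAX, the pore former that pairs with BAK1, had 137, 76.6 and 101 FPKM in G3C2 and 131, 62.2 and 69.0 FPKM in WT, higher in G3C2 in each pair (log2 fold change 0.30, SE 0.19, limma adjusted p = 0.529). BBC3, which encodes the BH3-only protein PUMA, had 7.65, 11.3 and 5.58 FPKM in G3C2 and 7.49, 14.0 and 18.1 FPKM in WT, and so parted in pair c. Both were chosen after their values were seen.

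Replicate c of G3C2 held the lowest level among the 4 libraries of the second table for 9 of the 30 genes (30%), against 28.8% of all tested genes. They were BCL2L11, BMF, HRK, XIAP, CASP4, CASP6, CASP9, CASP10 and CFLAR. It held the highest level for 11 of the 30 (36.7%), BID and CYCS among them, against 39.5% of all tested genes. These counts use FPKM as deposited. On recovered read totals BOK, BIRC2, CASP2, HTRA2, ENDOG and RIPK1 were no longer highest there, and genes such as BCL2, MCL1 and PMAIP1 became lowest. The shares of all genes were not counted on that scale. RUNX2, an osteoblast transcription factor, had 46.4, 15.3 and 6.41 FPKM in G3C2 and 18.7, 7.27 and 7.57 FPKM in WT, with G3C2 replicate c the lowest. The part that culture state or library quality had in these levels was not tested.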
